A study of Mus musculus with 8 samples.

Results

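The 10 genes described here, Ankrd1, Axl, Crim1, Myof, Nt5e, Ptpn14, Nuak2, Dock5, Arhgef17 and Ccdc80, are targets of the co-activators YAP and TAZ known largely from cell types other than the fat cell. They were chosen by name from a published signature of 22 YAP/TAZ targets. The 12 other genes of that signature, among them Ctgf, Cyr61, Amotl2 and Lats2, are described apart. Each of the 10 was read in all 8 libraries of the series, out of 30387 genes in the table. RNA was sequenced from white adipocytes isolated from epididymal fat of male wild-type littermates (WT) and of their Ad-Yap/Taz-KO littermates (KO), where a Cre recombinase driven by the adiponectin promoter (Adipoq-Cre) deletes the floxed Yap and Taz genes (Yap fl/fl, Taz fl/fl). Mice of each genotype received standard diet (SD, called normal chow in the labels) or high-fat diet (HFD) for 4 weeks from the age of week 5 given with the data, while the methods of the study place the start 1 week later. Each of the 4 resulting groups (WT on SD, KO on SD, WT on HFD and KO on HFD) holds 2 libraries, described as 1 mouse per library. Because Cre acts only in cells in which the adiponectin promoter is active, RNA of any other cell type in the isolate comes from cells that keep both genes.

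YAP and TAZ are the transcriptional co-activators at the end of the Hippo pathway, in which the kinases LATS1 and LATS2 phosphorylate them and hold them in the cytoplasm. In the nucleus they do not bind DNA themselves but act through TEAD transcription factors, which recognise the element GGAATG, and the genes they switch on include growth factors, receptors, cytoskeletal regulators and several inhibitors of YAP and TAZ. Target lists were drawn up largely in cultured cells of other kinds, so whether a listed gene follows YAP and TAZ in the adipocyte has to be read gene by gene.

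The deposited values are read counts divided by a size factor and rounded, called normalized counts here. The libraries rest on 14.0 to 22.3 M reads counted on genes, and 1 read is worth 0.795 to 1.13 normalized counts. The 2 libraries of WT mice on HFD lie closer together than any other pair in genes with a mean of 1000 to 5000 normalized counts. Their squared difference there was 5.86 times the Poisson expectation, against 25.8 to 83.8 times in the other 3 groups. Each of their values is therefore given for the members, and every comparison was also fitted with them averaged to 1 sample. That fit is reported for the members and, as counts called, for the 12 other signature genes and all genes. Relatives, partners, TEAD factors and markers are given under the main fit only. Whether these 2 libraries come from separate mice cannot be told from the values, and if they share a source, p-values that involve WT mice on HFD rest on technical spread in that group. Wwtr1, the gene of TAZ, reached 5594 and 4743 normalized counts in WT against 2441 and 1957 in KO mice on SD, and 7121 and 6807 in WT against 2060 and 2707 in KO mice on HFD. Yap1 had 2776 and 2717 against 1669 and 1699 on SD and 2468 and 2333 against 1549 and 2068 on HFD. Both targeted genes were thus lower in each KO library than in each WT library on the same diet, with transcript left in all of them.

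Differences were tested with limma on log2(normalized count + 1) over 18800 genes with a mean of at least 5, and a gene is called where the adjusted p does not exceed 0.05 and the fold change reaches 0.59 on the log2 scale, up or down. Of the 10 genes, 9 passed the filter on low values and Ankrd1 did not. With 2 libraries against 2, an exact two-sided permutation test of a single gene cannot give a p under 0.333, so all p-values come from the fit across genes.

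Markers of other cell types moved with the groups. The summed level of 11 macrophage markers (Adgre1, Cd68, Csf1r, Lyz2 and others) was 5294 and 5022 normalized counts in WT against 41439 and 25659 in KO mice on SD, and 2342 and 2498 against 58440 and 45152 on HFD. On each diet 10 of these 11 genes were called higher in KO mice. The 9 fibroblast and progenitor markers summed to 22120 and 22549 against 69749 and 78362 on HFD, where 7 of 9 were called higher, and none of them was called on SD (3 of 9 at an unadjusted p under 0.05). The 9 adipocyte markers (Adipoq, Plin1, Lep and others) summed to 349068 and 341780 against 165280 and 82420 on HFD, with 8 of 9 called lower, against 186922 and 201115 in WT and 150712 and 218077 in KO mice on SD, with 0 of 9 called and 0 of 9 at an unadjusted p under 0.05. Endothelial markers had 2 of 8 called higher on HFD and none on SD (5 of 8 at an unadjusted p under 0.05), and smooth muscle and pericyte markers 3 higher and 1 lower of 6 on HFD and none on SD (2 of 6 at an unadjusted p under 0.05). Striated muscle markers summed to 158 and 128 in WT against 1419 and 2266 in KO mice on SD, with 1 of 4 called higher, and to 398 and 457 against 375 and 145 on HFD, with 1 called higher and 1 lower. Most of the sum on SD was 1 gene, Acta1, with 97 and 101 in WT against 1359 and 2207 in KO mice, while Mylpf had 12 and 18 against 1 and 1. Lymphocyte markers summed to 56 and 64 against 108 and 105 on SD, with 0 of 4 called (0 at an unadjusted p under 0.05), and to 16 and 19 against 84 and 110 on HFD, with 2 of 4 called higher. Mesothelial markers summed to 230 and 225 against 287 and 413 on SD, with 0 of 6 called (0 at an unadjusted p under 0.05), and to 179 and 216 against 327 and 736 on HFD, with 1 called higher and 1 lower. The higher gene was Wt1, with 46 and 54 in WT against 310 and 531 in KO mice, while Msln, called lower, had 15 and 19 against 0 and 2, and the median log2 fold change of the list was -1.14. In bulk RNA, fewer cells of a type and less RNA per cell cannot be told apart, and the part of these shifts in the results that follow was not tested.

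**Figure D1:**
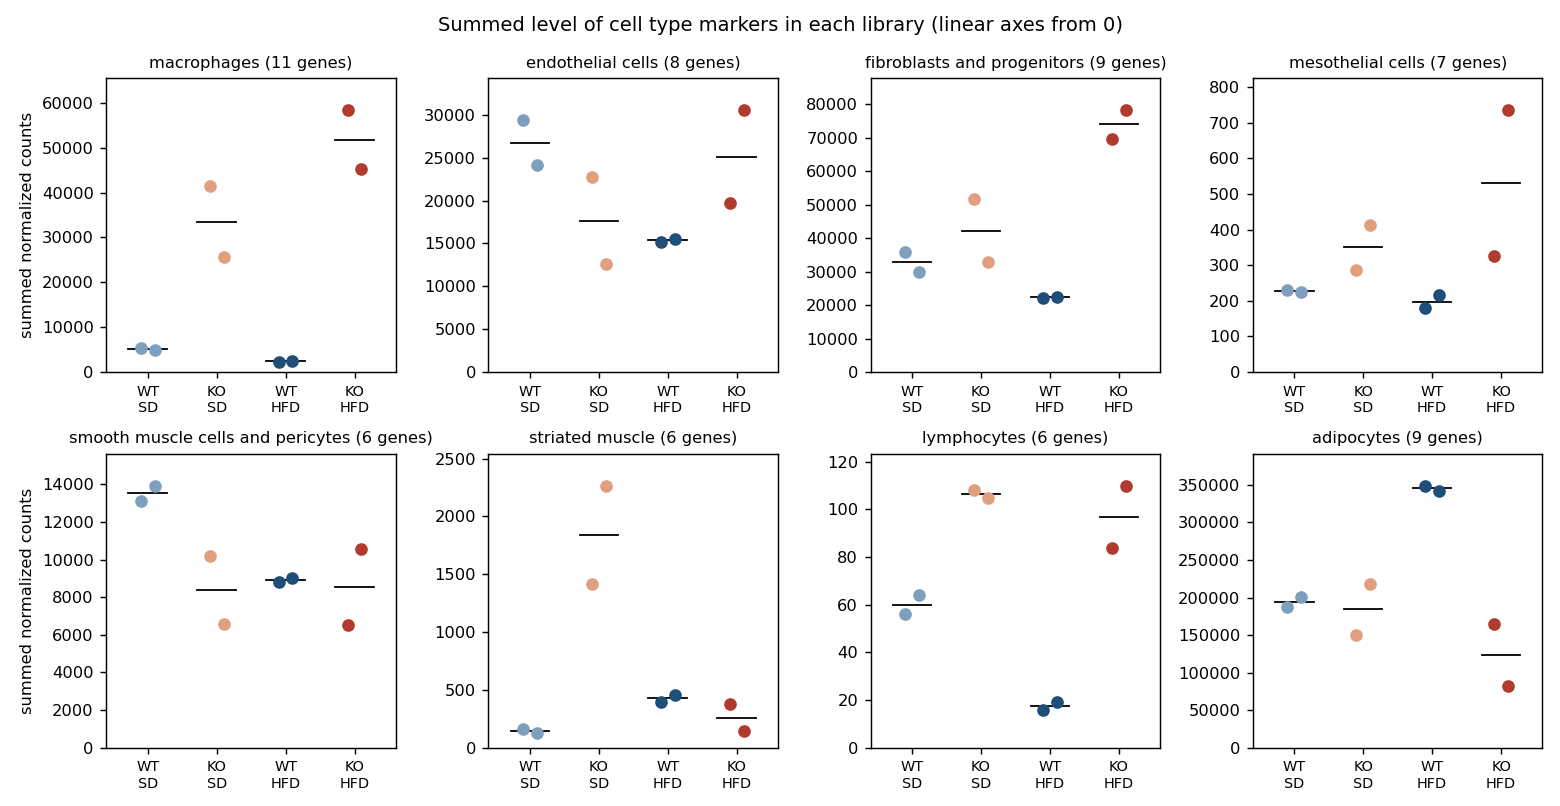
Summed normalized counts of 8 lists of cell type markers (vertical axis, linear from 0) in each library (points) of the 4 groups (horizontal axis), with a bar at the group mean. The 2 KO libraries on HFD hold the highest macrophage sums, 58440 and 45152, and adipocyte sums of 165280 and 82420, below both WT libraries on HFD.

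The levels of the 10 genes span several orders of magnitude. Per kilobase of exon, the mean in WT mice on SD was 10018 normalized counts for Ccdc80, rank 34 of 30259 genes with a length, followed by Crim1 with 312, Axl with 196, Ptpn14 with 169, Arhgef17 with 122, Nuak2 with 81.0, Myof with 53.0, Dock5 with 46.4, Nt5e with 26.4 and Ankrd1 with 1.39. In that order the libraries of Myof and Dock5 overlapped, and all other neighbours were apart in both libraries. In KO mice on HFD the per-kilobase level was 631 for Axl and 303 for Myof, behind only Ccdc80 with 5410 and, for Myof, Crim1 with 329, whose libraries overlapped those of Myof.

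**Figure D2:**
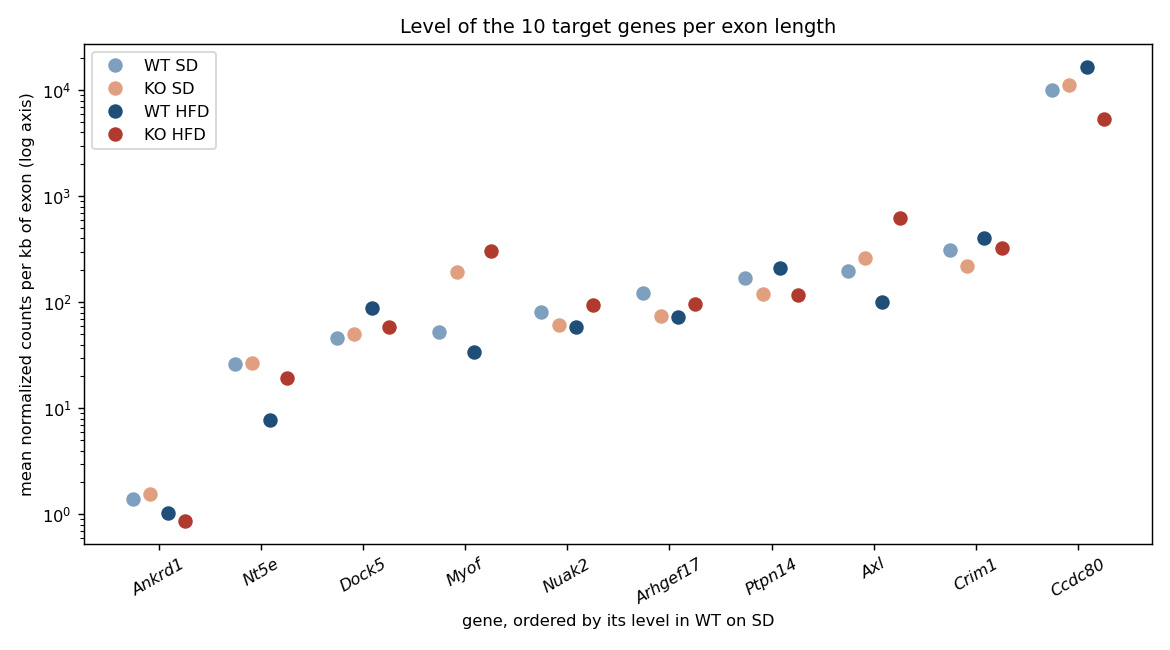
Mean normalized counts per kilobase of exon (vertical axis, log scale) of the 10 genes (horizontal axis, ordered by the level in WT mice on SD) in the 4 groups (colours). Ccdc80 lies at 5410 to 16693 per kilobase, Ankrd1 at 0.866 to 1.56, and Axl and Myof have their highest value in KO mice on HFD.

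Promoter sequences are shown because the TEAD element is the feature that links target genes to YAP and TAZ. None is printed for Ankrd1 and Nt5e, whose upstream windows lie wholly in annotated exons. RefSeq windows of 300 bases on GRCm38.p6, 250 before and 50 after the first base of the gene in RefSeq, were held for 6 of the 10 genes. The window of Nt5e (chr9:88327359-88327658) lies inside the gene as placed in the count data, which starts at 88327197. GGAATG or its reverse complement CATTCC, searched on both strands, occurred in 4 of these 6, against 14.7% of 32851 mouse promoters of the same length. Ankrd1 held GGAATG at 210 and at 123 bases before its start, Axl at 233, Crim1 at 79, and Ptpn14 held CATTCC at 146, whereas Myof and Nt5e held neither. For Nt5e, the bases before the gene start in the count data were not searched. Of the 9 other genes of the signature with a window, 3 held the element. These are matches of letters and not measured binding. The stretches upstream of the start that overlap no annotated exon are given 5′ to 3′ on the strand of the gene, with the element in capitals, for Axl (chr7:25788734-25788983, minus strand), Crim1 (chr17:78200026-78200247, plus strand), Ptpn14 (chr1:189728018-189728267, plus strand) and Myof (chr19:38043578-38043827, minus strand), the last without an element.
Axl: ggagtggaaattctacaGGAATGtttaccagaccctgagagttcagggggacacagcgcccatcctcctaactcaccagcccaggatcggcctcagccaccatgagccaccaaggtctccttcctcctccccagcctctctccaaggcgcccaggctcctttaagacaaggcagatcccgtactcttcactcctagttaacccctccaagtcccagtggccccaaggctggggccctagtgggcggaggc
Crim1: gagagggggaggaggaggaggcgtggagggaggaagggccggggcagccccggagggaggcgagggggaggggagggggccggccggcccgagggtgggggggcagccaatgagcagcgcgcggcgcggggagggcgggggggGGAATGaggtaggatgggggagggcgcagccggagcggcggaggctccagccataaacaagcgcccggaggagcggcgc
Ptpn14: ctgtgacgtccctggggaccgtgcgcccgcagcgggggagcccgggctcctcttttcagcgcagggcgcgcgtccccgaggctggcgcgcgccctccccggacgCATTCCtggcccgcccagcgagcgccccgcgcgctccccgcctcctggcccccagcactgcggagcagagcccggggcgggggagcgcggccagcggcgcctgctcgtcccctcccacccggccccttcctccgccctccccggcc
Myof: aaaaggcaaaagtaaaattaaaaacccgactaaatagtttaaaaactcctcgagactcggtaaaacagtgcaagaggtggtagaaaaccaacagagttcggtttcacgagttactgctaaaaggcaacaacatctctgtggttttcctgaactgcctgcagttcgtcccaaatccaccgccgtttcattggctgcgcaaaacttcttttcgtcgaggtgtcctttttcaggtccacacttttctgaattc

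On HFD, 6 of the 9 tested genes were called between the genotypes, Axl, Myof and Nuak2 higher and Ptpn14, Dock5 and Ccdc80 lower in KO mice. With equal library totals 5 genes were called higher, Nt5e and Arhgef17 beside these 3, and Ccdc80 alone lower. Of all genes tested, 32.2% were called in this comparison, 17.1% higher and 15.1% lower (24.6% and 7.27% with equal totals). The libraries of the genotypes did not overlap in any of the 9 genes, nor in 69.6% of all genes. The median log2 fold change of the 9 genes was 0.38, beside 0.09 over all genes and -0.68 over the 12 other genes of the signature. On SD only Myof was called, higher in KO mice, with 4.71% of all genes called (3.21% higher and 1.5% lower), and the genotypes were without overlap in 6 of the 9 genes, beside 45% of all genes. Between the diets, the libraries were without overlap in 9 of the 9 genes in WT (65% of all genes) and in 4 of the 9 in KO mice (42% of all genes). The median log2 fold change on SD was 0.10 for the 9 genes, -0.50 for the 12 other genes and -0.01 over all genes.

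**Figure D3:**
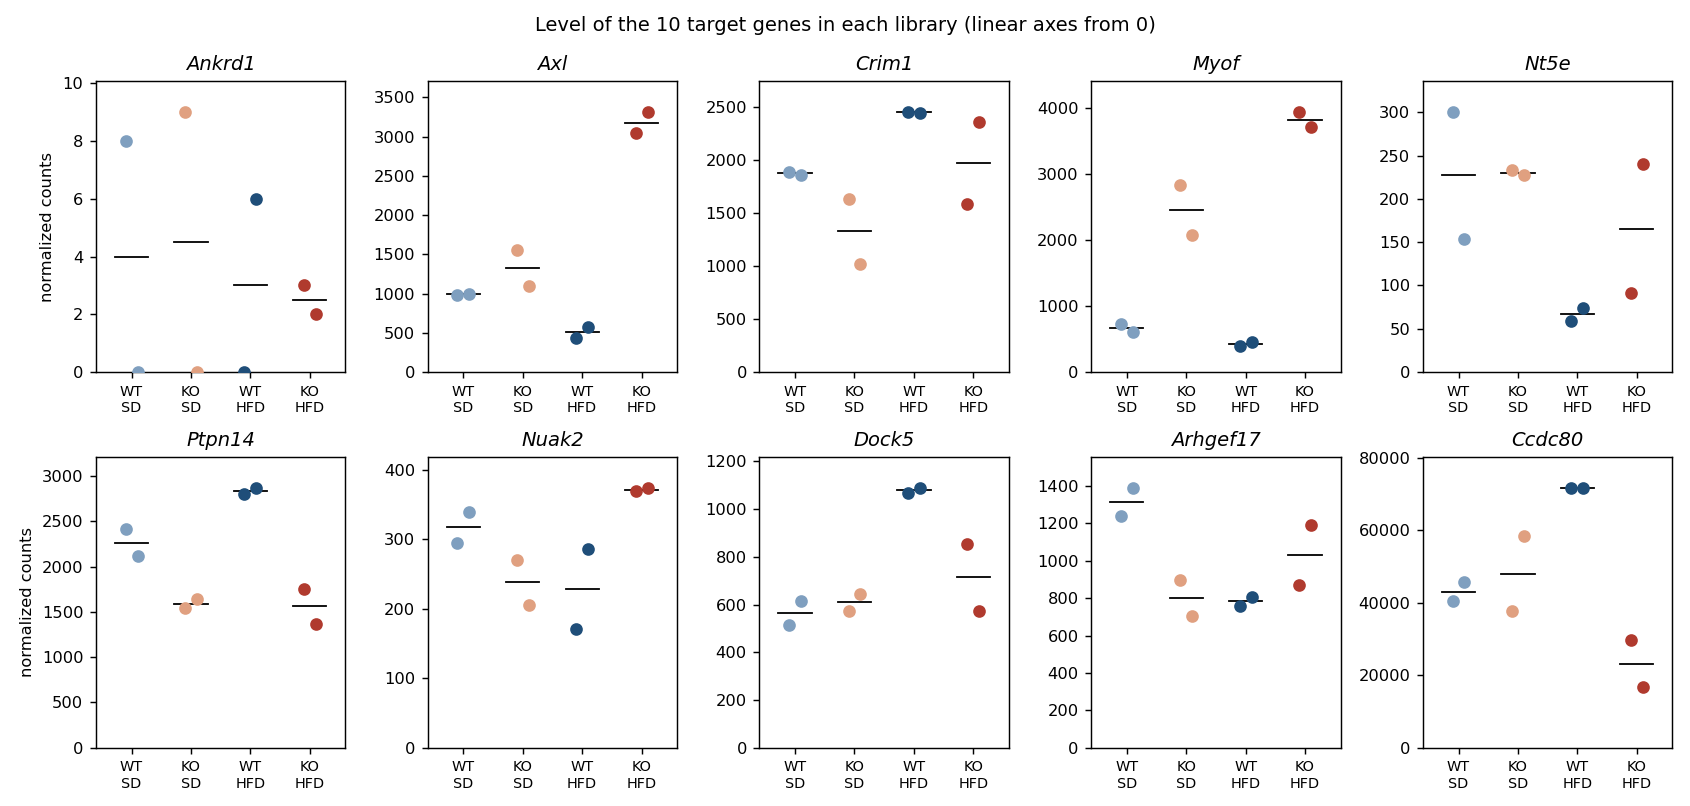
Normalized counts of the 10 genes (vertical axes, linear from 0) in each library (points) of the 4 groups (horizontal axes), with a bar at the group mean. Axl reaches 3040 and 3310 and Myof 3929 and 3701 in KO mice on HFD, above every other library, while Ccdc80 falls to 29676 and 16777 there.

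**Figure D4:**
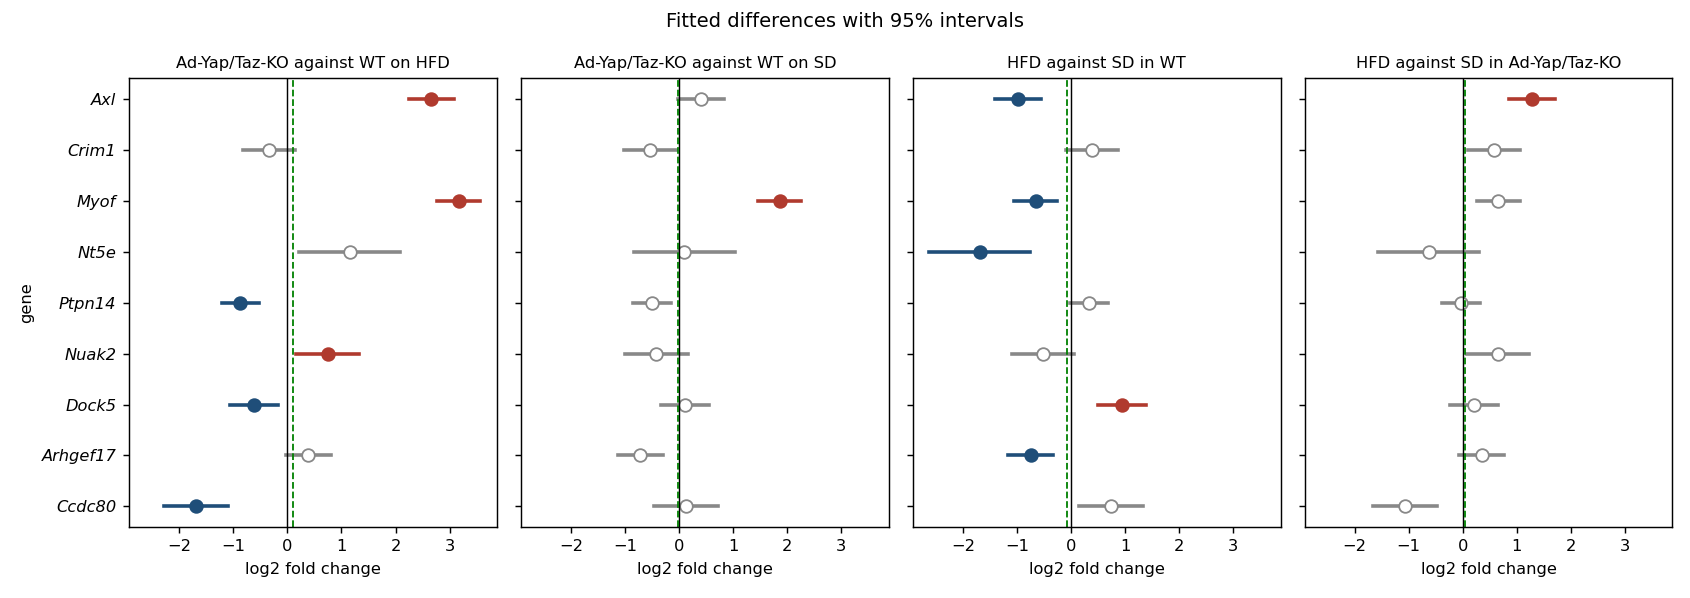
Log2 fold changes (horizontal axes) of the 9 tested genes (vertical axis) in 4 comparisons, with 95% intervals from limma as lines. Filled points are called, red higher and blue lower, open points are not called, and the dashed line is the median of all genes tested. On HFD, Axl at 2.66 and Myof at 3.17 lie farthest to the right and Ccdc80 at -1.68 farthest to the left.

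Axl encodes a receptor tyrosine kinase of the TAM family, whose ligand is the vitamin K-dependent protein Gas6 and which acts in the clearance of dying cells and in survival signalling. Axl (ENSMUSG00000002602, chr7:25757273-25788705, minus strand, GRCm38) reached 981 and 995 normalized counts in WT against 1552 and 1095 in KO mice on SD, and 434 and 575 in WT against 3040 and 3310 in KO mice on HFD. Both KO libraries on HFD were above all 6 other libraries, and the WT libraries on HFD were below all others. The difference between genotypes on HFD was 2.66 on the log2 scale (standard error, s.e., 0.20, adjusted p = 9.5e-07), a 6.34-fold higher level, and it was called under each of 9 alternatives and without any single library. On SD it was 0.40 (s.e. 0.20, adjusted p = 0.33). The difference on HFD exceeded that on SD by 2.26 (s.e. 0.28, adjusted p = 0.0014 for the interaction). HFD thus went with a lower level in WT mice, -0.98 (s.e. 0.20, adjusted p = 0.0059), and with a higher level in KO mice, 1.28 (s.e. 0.20, adjusted p = 0.012). Background shares for these diet comparisons were 18% of all genes in WT (8.74% higher and 9.22% lower, or 2.5% and 19% with every library scaled to the same total) and 1.07% in KO mice (0.383% higher and 0.691% lower, or 0.319% and 0.92%). The call in WT was lost when the WT HFD pair counted as 1 sample (adjusted p = 0.061, range over 9 alternatives 0.0014 to 0.061), without WT SD replicate 1 (adjusted p = 0.067) and without WT HFD replicate 1 (adjusted p = 0.085). The call in KO mice was lost without KO SD replicate 2 (adjusted p = 0.11) and without KO HFD replicate 2 (adjusted p = 0.065), and in 2 of 9 alternatives (range of adjusted p 0.0060 to 0.18).

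The ligand and the sister receptors of Axl had patterns of their own. Gas6 had 4151 and 5776 normalized counts in WT mice on SD and between 913 and 1291 in the 6 other libraries. It was called lower in KO mice on SD (log2 fold change -2.06, adjusted p = 7.5e-05) and lower on HFD in WT mice (-2.10, adjusted p = 0.00013), and the genotypes on HFD differed by -0.08 (adjusted p = 0.80). Pros1, the other ligand of the family, was between 1067 and 2158 in all libraries and was not called in any comparison. Mertk, the receptor of the family best known from macrophages, lay between 780 and 1291 and was not called either, with a difference of -0.22 on HFD (adjusted p = 0.38). Tyro3 had 4 to 50 normalized counts and was not called (1.96 on HFD, adjusted p = 0.088). The genes most like Axl over the 8 libraries were Svep1, an extracellular adhesion protein (Pearson r = 0.994 of the log2 values, as a description), and Cpe, carboxypeptidase E (r = 0.992). Like Axl, the fibroblast and progenitor marker sum was lowest in WT mice on HFD, at 22120 and 22549. It was highest in KO mice on HFD, at 69749 and 78362. Between the diets, 4 of these 9 markers were called lower in WT and 2 of 9 higher in KO mice (9.22% and 0.383% of all genes). The macrophage sum was also lowest and highest in the same groups. The part of these cell types in the level of Axl was not tested.

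Myof encodes myoferlin, a membrane protein of the ferlin family that acts in membrane fusion and repair. Myof (ENSMUSG00000048612, chr19:37899036-38043577, minus strand) reached 730 and 607 normalized counts in WT against 2835 and 2067 in KO mice on SD, and 392 and 458 in WT against 3929 and 3701 in KO mice on HFD. All 4 KO libraries were above all 4 WT libraries. It was the only member called between genotypes on both diets, with a log2 fold change of 3.17 on HFD (s.e. 0.18, adjusted p = 1.6e-07, 8.98-fold) and 1.86 on SD (s.e. 0.18, adjusted p = 6.8e-05, 3.63-fold). Both calls held under each of 9 alternatives and without any single library. The interaction was 1.31 (s.e. 0.26, adjusted p = 0.0087), and its call was lost when the WT HFD pair counted as 1 sample (adjusted p = 0.054, range over 8 alternatives 0.0034 to 0.054), without WT SD replicate 1 (adjusted p = 0.060) and without WT HFD replicate 1 (adjusted p = 0.054). HFD went with a lower level in WT mice, -0.65 (s.e. 0.18, adjusted p = 0.028), a call that was lost when any of the 4 WT libraries was left out (adjusted p from 0.064 to 0.20), without the filter (adjusted p = 0.080) and when the WT HFD pair counted as 1 sample (adjusted p = 0.16), and in KO mice the difference was 0.66 (s.e. 0.18, adjusted p = 0.11) and was called without KO SD replicate 1 (0.88, adjusted p = 0.029).

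The genes closest to Myof in pattern were C3ar1, a receptor for the complement fragment C3a (r = 0.999), and Myo1f, a myosin of blood cells (r = 0.999). In each KO library the macrophage sum given above was also higher than in each WT library, and it was lower in WT mice on HFD than on SD, as Myof was. Dysf, the ferlin of muscle membrane repair, reached 2330 and 1809 normalized counts in WT against 2360 and 1356 in KO mice on SD, and 1302 and 1307 in WT against 1938 and 2746 in KO mice on HFD. It was called higher in KO mice on HFD (0.82, adjusted p = 0.021) and not on SD (-0.20, adjusted p = 0.75).

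Ccdc80, an extracellular matrix protein secreted in large amount by adipocytes, was by far the most abundant member. Ccdc80 (ENSMUSG00000022665, chr16:45093402-45127924, plus strand) reached 40340 and 45674 normalized counts in WT against 37660 and 58357 in KO mice on SD, and 71653 and 71671 in WT against 29676 and 16777 in KO mice on HFD. The genotypes overlapped on SD, and on HFD both KO libraries were below all 6 others. The log2 fold change was -1.68 on HFD (s.e. 0.27, adjusted p = 0.00055), a 3.21-fold lower level that was called under each of 9 alternatives and without any single library, and 0.13 on SD (s.e. 0.27, adjusted p = 0.86). The interaction was -1.81 (s.e. 0.39, adjusted p = 0.011), with its call lost in 2 of 8 alternatives (range of adjusted p 0.0084 to 0.066) and without WT SD replicate 1 (adjusted p = 0.068), WT HFD replicate 1 (adjusted p = 0.055) or WT HFD replicate 2 (adjusted p = 0.062). The diet differences of 0.74 in WT (adjusted p = 0.075) and -1.07 in KO mice (adjusted p = 0.084) missed the limit. The former was called in 1 of 9 alternatives, the fit of the 2 groups alone (adjusted p = 0.0014, range 0.0014 to 0.33). The latter was called without KO SD replicate 1 (-1.39, adjusted p = 0.026) and without KO HFD replicate 1 (-1.48, adjusted p = 0.0069).

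The libraries ran in nearly the same order in the level of Ccdc80 and in the adipocyte marker sum. KO replicate 2 on HFD, with 16777 the lowest value of Ccdc80, also had the lowest adipocyte sum, 82420, and the WT libraries on HFD were highest in both. KO replicate 1 on HFD was below KO replicate 1 on SD in Ccdc80 (29676 against 37660) and above it in the adipocyte sum (165280 against 150712). The order of these sums turned on Fabp4, with 64080 against 43494. Plin1 had 23643 against 29832, and the other markers of the list went both ways. The nearest genes by pattern were Art3, an ADP-ribosyltransferase, and Pck1, the PEP carboxykinase of glycerol synthesis in fat (r = 0.997 each).

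Ptpn14 encodes a tyrosine phosphatase that binds YAP and holds it outside the nucleus, so that it is both a target and an inhibitor of the pathway. Ptpn14 (ENSMUSG00000026604, chr1:189728268-189876695, plus strand) reached 2415 and 2117 normalized counts in WT against 1546 and 1639 in KO mice on SD, and 2807 and 2870 in WT against 1756 and 1372 in KO mice on HFD. All 4 KO libraries were below all 4 WT libraries. The log2 fold change was -0.87 on HFD (s.e. 0.16, adjusted p = 0.0013), 1.83-fold lower, and -0.51 on SD (s.e. 0.16, adjusted p = 0.11). The call on HFD held without any single library and in 8 of 9 alternatives. With every library scaled to the same total, the difference was -0.48 (adjusted p = 0.023, range over 9 alternatives 0.00059 to 0.024), under the limit of fold change, while the median of all genes moved from 0.09 to 0.47. The diets did not differ past the limits in either genotype (0.33 in WT, adjusted p = 0.16, and -0.04 in KO, adjusted p = 0.94).

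Ptpn14 was the only 1 of the 10 genes with every KO library below every WT library across the diets. Its related phosphatase Ptpn21 reached 589 and 622 in WT against 453 and 608 in KO mice on SD, and 1060 and 1018 in WT against 463 and 534 in KO mice on HFD. Ptpn21 was called lower in KO mice on HFD (-1.06, adjusted p = 0.0010), higher on HFD in WT mice (0.78, adjusted p = 0.015) and in the interaction (-0.86, adjusted p = 0.044). Fam174b (r = 0.984) and the RNA-binding protein Rbms2 (r = 0.983) were most like Ptpn14. An antisense gene, Gm26574, covers 1.32% of its exon bases, and use of the strand in counting is not stated.

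Nuak2 encodes a kinase of the AMPK-related family that acts on the actomyosin cytoskeleton and feeds back on YAP. Nuak2 (ENSMUSG00000009772, chr1:132316126-132333488, plus strand) reached 295 and 340 normalized counts in WT against 270 and 206 in KO mice on SD, and 171 and 286 in WT against 369 and 374 in KO mice on HFD. The KO libraries were below both WT libraries on SD and above both on HFD. The difference on HFD was 0.75 (s.e. 0.27, adjusted p = 0.046), 1.68-fold, and that on SD -0.42 (s.e. 0.27, adjusted p = 0.47). The call on HFD was held in 4 of 9 alternatives (adjusted p from 0.0085 to 0.13) and lost without WT HFD replicate 1 (0.38, adjusted p = 0.39), KO HFD replicate 1 (adjusted p = 0.10) or KO HFD replicate 2 (adjusted p = 0.15). The interaction was 1.17 (s.e. 0.38) with an adjusted p of 0.05003, just past the limit, and it was called in 4 of 8 alternatives (adjusted p from 0.019 to 0.11) and without KO SD replicate 1 (adjusted p = 0.033). Nuak1, the sister kinase, reached 899 and 578 in WT against 513 and 440 in KO mice on SD, and 495 and 420 in WT against 651 and 736 in KO mice on HFD, and it was called in the interaction alone (1.20, adjusted p = 0.023). St6galnac6 (r = 0.969) and Zfp618 (r = 0.951) were the genes most like Nuak2.

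Dock5 and Arhgef17 encode exchange factors that load small GTPases, Dock5 acting on Rac with ELMO proteins and Arhgef17 on RhoA. Dock5 (ENSMUSG00000044447, chr14:67751928-67933572, minus strand) reached 516 and 614 normalized counts in WT against 575 and 643 in KO mice on SD, and 1069 and 1089 in WT against 855 and 573 in KO mice on HFD. The WT libraries on HFD were above all 6 others, and the genotypes overlapped on SD. HFD went with a higher level in WT mice (0.94, s.e. 0.20, adjusted p = 0.0091, 1.92-fold), and KO mice on HFD were lower than WT (-0.62, s.e. 0.20, adjusted p = 0.032). The diet call was lost with equal totals (0.52, adjusted p = 0.054), when the WT HFD pair counted as 1 sample (adjusted p = 0.095, range over 9 alternatives 0.0023 to 0.095), and without WT SD replicate 1 (adjusted p = 0.10), WT HFD replicate 1 (adjusted p = 0.073) or WT HFD replicate 2 (adjusted p = 0.089). The genotype call was held in 5 of 9 alternatives (adjusted p from 0.019 to 0.33) and lost without KO HFD replicate 2 (-0.34, adjusted p = 0.26) and without either WT HFD library (adjusted p = 0.13 and 0.16). The interaction was called without KO HFD replicate 1 alone (-1.02, adjusted p = 0.015).

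Around Dock5, the related exchange factors and the partners split. Dock1, which is broadly expressed, lay between 2532 and 2897 in all libraries and was not called in any comparison. Dock2, the Rac activator of blood cells, reached 372 and 270 normalized counts in WT against 2708 and 1835 in KO mice on SD, and 177 and 180 in WT against 3656 and 3200 in KO mice on HFD, with log2 fold changes of 2.81 (adjusted p = 9.3e-06) and 4.25 (adjusted p = 6.4e-08). Elmo1 was called higher in KO mice on HFD (1.53, adjusted p = 4.2e-05) and Elmo3 lower (-1.84, adjusted p = 0.00067), while Elmo2 (0.01, adjusted p = 0.99) and Rac1 (-0.26, adjusted p = 0.16) were not called. Anxa2, annexin A2 (r = 0.992), and Emc3 (r = 0.985) were the genes most like Dock5.

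Arhgef17 (ENSMUSG00000032875, chr7:100869752-100932107, minus strand) reached 1241 and 1390 normalized counts in WT against 899 and 707 in KO mice on SD, and 760 and 805 in WT against 871 and 1193 in KO mice on HFD. The WT libraries on SD were above all 6 others, and the order of the genotypes turned between the diets. The difference between genotypes was -0.72 on SD (s.e. 0.19, adjusted p = 0.053) and 0.38 on HFD (s.e. 0.19, adjusted p = 0.14), and the interaction of 1.10 was called (s.e. 0.27, adjusted p = 0.018). This call was held in 6 of 8 alternatives (adjusted p from 0.0091 to 0.086) and without KO SD replicate 1 or KO HFD replicate 1, but was lost without each of the 6 other libraries (adjusted p from 0.059 to 0.082). The difference on HFD was called with equal totals (0.77, adjusted p = 0.019, range over 9 alternatives 0.019 to 0.35) and without KO HFD replicate 1 (0.61, adjusted p = 0.033). The difference on SD was called in 3 of 9 alternatives (adjusted p from 0.037 to 0.16) and without KO SD replicate 1 (adjusted p = 0.044). HFD went with a lower level in WT mice (-0.75, s.e. 0.19, adjusted p = 0.019), a call lost without any of the 4 WT libraries (adjusted p from 0.091 to 0.13), without the filter (adjusted p = 0.061) and when the WT HFD pair counted as 1 sample (adjusted p = 0.14). The endothelial marker sum, 29383 and 24174 in WT and 22708 and 12575 in KO mice on SD and 15120 and 15579 against 19693 and 30584 on HFD, had the same order of the genotypes on each diet as Arhgef17. Its nearest genes were Dll4, a Notch ligand of endothelial cells (r = 0.980), and Greb1l (r = 0.979).

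Relatives of Arhgef17 were called in opposite directions. Arhgef10 reached 672 and 882 normalized counts in WT against 389 and 248 in KO mice on SD, and 1370 and 1479 in WT against 322 and 533 in KO mice on HFD. It was called lower on both diets (-1.31, adjusted p = 0.012 on SD, and -1.78, adjusted p = 0.00030 on HFD). Arhgef10l was called higher in KO mice on HFD (2.41, adjusted p = 0.00020) and not on SD (0.20, adjusted p = 0.83). Rhoa itself differed by -0.49 on HFD (adjusted p = 0.019), under the limit of fold change.

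Nt5e encodes CD73, the surface enzyme that splits AMP to adenosine. Nt5e (ENSMUSG00000032420, chr9:88327197-88372092, plus strand) reached 300 and 154 normalized counts in WT against 233 and 227 in KO mice on SD, and 59 and 74 in WT against 91 and 240 in KO mice on HFD. The WT libraries on HFD were the lowest of all, and the KO libraries on HFD lay far apart. HFD went with a lower level in WT mice (-1.69, s.e. 0.43, adjusted p = 0.018, 3.22-fold). This call was lost without WT SD replicate 1 (-1.21, adjusted p = 0.19), WT HFD replicate 1 (adjusted p = 0.12) or WT HFD replicate 2 (adjusted p = 0.085), without the filter (adjusted p = 0.079) and when the WT HFD pair counted as 1 sample (adjusted p = 0.12). The difference between genotypes on HFD was 1.15 (s.e. 0.43, 95% interval 0.22 to 2.08, adjusted p = 0.054). It was called without KO HFD replicate 1 (1.85, adjusted p = 0.0048) and with every library scaled to the same total (1.53, adjusted p = 0.024). On SD it was 0.10 (adjusted p = 0.94), and the interaction was called without KO HFD replicate 1 alone (1.75, adjusted p = 0.034). Gm13556 (r = 0.988) and the interferon-induced GTPase gene Tgtp1 (r = 0.964) were most like Nt5e.

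Of the 9 genes listed around the AMP-to-adenosine step, 8 were tested, and on HFD 5 were called higher and 2 lower in KO mice, beside 17.1% and 15.1% of all genes (24.6% and 7.27% with equal totals). The higher genes were Entpd1, the ecto-enzyme CD39 that makes AMP from ATP and ADP (1.67, adjusted p = 6.0e-05), Enpp1 (1.75, adjusted p = 0.019), Ada, adenosine deaminase (1.00, adjusted p = 0.041), Slc29a1, a nucleoside transporter (1.75, adjusted p = 0.0037), and the receptor gene Adora2a (1.25, adjusted p = 0.015). The lower genes were Adk, adenosine kinase (-1.95, adjusted p = 8.7e-05), and Adora1, the adenosine A1 receptor of adipocytes that restrains lipolysis (-3.20, adjusted p = 6.4e-06). Adora1 reached 618 and 712 normalized counts in WT against 159 and 237 in KO mice on SD, and 2611 and 2498 in WT against 399 and 191 in KO mice on HFD, and was also called lower on SD (-1.77, adjusted p = 0.0032). Adora2b was not called (1.36 on HFD, adjusted p = 0.21), and Adora3, with at most 11 normalized counts, fell under the filter.

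Crim1 encodes a transmembrane protein with cysteine-rich repeats that binds bone morphogenetic proteins. Crim1 (ENSMUSG00000024074, chr17:78200248-78376592, plus strand) reached 1888 and 1857 normalized counts in WT against 1631 and 1022 in KO mice on SD, and 2449 and 2445 in WT against 1586 and 2353 in KO mice on HFD. Both KO libraries were below both WT libraries on each diet, with wide gaps between the KO mice. Crim1 was not called in any comparison. The difference was -0.34 on HFD (s.e. 0.22, 95% interval -0.83 to 0.14, adjusted p = 0.26) and -0.54 on SD (s.e. 0.22, 95% interval -1.02 to -0.05, adjusted p = 0.24). Without KO SD replicate 1, the difference on SD was called (-0.87, adjusted p = 0.050), as was the diet difference in KO mice (0.92, adjusted p = 0.038). On HFD the sign turned with every library scaled to the same total (0.04, beside a median of 0.47 over all genes). Bmp4, a ligand listed with it, was not called on either diet (-0.75 on HFD, adjusted p = 0.093), and Bmp7 had at most 6 normalized counts. Zbtb33 (r = 0.974) and Pkd2 (r = 0.966) were most like Crim1, and exons of Fez2 on the opposite strand cover 2.05% of its exon bases.

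Ankrd1, which encodes a muscle ankyrin repeat protein and is among the most used readouts of YAP and TAZ, was near the limit of detection. The study also used it in cultured 3T3-L1 adipocytes, where RT-PCR showed a rise of Ankrd1 after TNFα or IL-1β. Knockdown of Yap and Taz reduced the induction of target genes in those cells. Ankrd1 (ENSMUSG00000024803, chr19:36111965-36119844, minus strand) reached 8 and 0 normalized counts in WT against 9 and 0 in KO mice on SD, and 0 and 6 in WT against 3 and 2 in KO mice on HFD. A count of 0 allows up to 3 reads, which is 2.39 to 3.40 normalized counts depending on the library, and covers counting error only. With a mean of 3.50 it stayed under the filter, and no difference was detectable at this depth. Its relatives Ankrd2, with 2 to 24 normalized counts, and Ankrd23, with 1 to 35, were tested and not called in any comparison. The window of Ankrd1 was also the only 1 of the 6 with the TEAD element in 2 copies, which 1.33% of all promoters hold.

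Among the members, the pattern over the 8 libraries was most alike for Axl and Myof (Pearson r = 0.921) and most opposed for Nt5e and Dock5 (r = -0.967), Myof and Ptpn14 (r = -0.930) and Axl and Ccdc80 (r = -0.920). These values describe the log2 levels of libraries that share the groups and the normalization, and Nt5e and Dock5 were respectively lowest and highest in WT mice on HFD.

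The other 12 genes of the signature were read in the same fit. On HFD 6 of the 12 were called, 5 of them lower in KO mice (Amotl2, Cyr61, Rbms3, F3 and Lats2) and Tgfb2 higher, and on SD 2, Amotl2 and Cyr61, both lower. Of all genes, 15.1% were called lower and 17.1% higher on HFD (7.27% and 24.6% with equal totals) and 1.5% lower on SD. Amotl2, an angiomotin that binds YAP, reached 4254 and 5972 normalized counts in WT against 1672 and 1760 in KO mice on SD, and 7068 and 7075 in WT against 1731 and 1424 in KO mice on HFD, with a log2 fold change of -2.17 on HFD (adjusted p = 2.1e-06). Tgfb2, the growth factor TGF-beta 2, reached 252 and 68 in WT against 344 and 204 in KO mice on SD, and 77 and 78 in WT against 391 and 457 in KO mice on HFD, with a log2 fold change of 2.43 on HFD (adjusted p = 0.0018). In the interaction of genotype and diet, 4 of the 9 members were called (Axl, Myof and Arhgef17 higher, Ccdc80 lower), with 17.4% of all genes called (8.69% higher and 8.73% lower, or 13.9% and 3.29% with every library scaled to the same total). Of the 12 other genes 0 were called in the interaction by limma (3 at an unadjusted p under 0.05) and 0 between the diets in KO mice (2 at an unadjusted p under 0.05). In WT mice on HFD against SD, 5 of the 9 members were called, Axl, Myof, Nt5e and Arhgef17 lower and Dock5 higher (with equal totals 5 lower, Nuak2 in place of Dock5), beside 9.22% of all genes lower and 8.74% higher (19% and 2.5% with equal totals). Of the 12 others, 2 were called there, Cyr61 (0.95, adjusted p = 0.0047) and Rbms3 (0.70, adjusted p = 0.029), both higher. When the WT HFD pair counted as 1 sample, 0 genes of either list were called between the diets in WT mice, and the share of all genes fell from 18% to 2.87%.

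**Figure D5:**
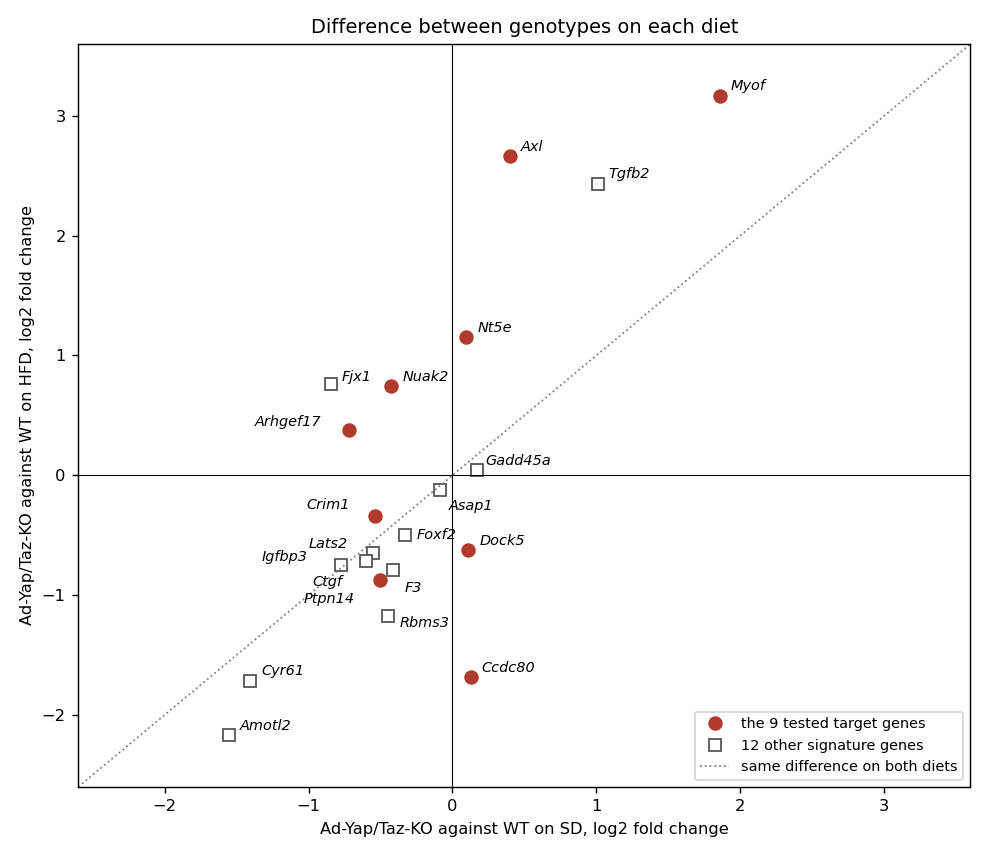
Log2 fold change of Ad-Yap/Taz-KO against WT on SD (horizontal axis) and on HFD (vertical axis) for the 9 tested target genes (filled circles) and the 12 other signature genes (open squares), 2 libraries per group, with the dotted line where both are equal. Axl, Myof and Tgfb2 lie in the upper right, Cyr61 and Amotl2 in the lower left near the line, and Ccdc80 at 0.13 on SD and -1.68 on HFD.

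The TEAD factors that carry YAP and TAZ to DNA were all present. Tead1 reached 2838 and 2657 normalized counts in WT against 2741 and 3748 in KO mice on SD, and 3627 and 4190 in WT against 2172 and 2159 in KO mice on HFD. It was called lower in KO mice on HFD (-0.85, adjusted p = 0.0021) and in the interaction (-1.07, adjusted p = 0.013). Tead2, Tead3 and Tead4 had 42 to 338 normalized counts and were not called in any comparison.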

How the data were processed

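RNA of isolated epididymal adipocytes was sequenced in 4 groups of 2 libraries, grouped by the sample labels. The authors depleted ribosomal RNA, made stranded total RNA libraries, sequenced single-end reads of 75 bases, trimmed them (Reaper), mapped them to GRCm38 by STAR 2.5.2b, counted reads on genes with featureCounts 1.5.1 and tested with DESeq2 1.14.1. What they deposited are normalized counts, treated here as a score: each count was divided by the size factor of its library, and the authors then rounded the result. Whole reads therefore could not be recovered for each gene, and the count tests planned for that case were not run.

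The worth of 1 read was estimated from the whole numbers that occur among low values, and tested on 5 simulated libraries. limma 3.58.1 with an intensity trend (R 4.3.3) was fitted to log2(value + 1) of the 18800 genes, of 30387, whose mean reached 5, which understates the fold changes of low genes. A single model of the 4 group means left 4 residual degrees of freedom, to which limma added 8.59. P-values were adjusted by Benjamini-Hochberg over all genes tested and measure the spread between the 2 libraries of a group, which the study describes as separate mice. On simulated data for the comparison of genotypes on HFD, 124 of 200 changed genes among 18800 were called, with 8 unchanged genes, and 0 were called when none was changed. The simulation gave all genes and groups the same spread beyond counting error, whereas the real groups differ in spread. These counts therefore do not measure false calls in the real data. Reads carry no molecular identifiers, so depth limits cover counting error only.

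The named genes were the 10 members, the 12 other genes of the signature, Yap1 and Wwtr1, the TEAD factors, listed relatives and partners of the members, markers of 8 cell types, and for each member the 2 genes with the highest Pearson r, where both means reached 50. Members and lists were chosen with earlier results of these data known. Of the 12 macrophage markers, Itgam has 2 entries in the table and was left out. Lengths and exon overlaps came from GENCODE vM21 (30259 genes matched) and promoters from RefSeq on GRCm38.p6. Alternative settings were other pseudocounts (0.1 and 8), a looser or stricter filter (none, or a mean of 50), equal totals or upper quartiles for scaling, a block for the replicate number, the average of both WT HFD libraries, models of the compared groups alone, other limits for a call, and the omission of each library. Python 3.11.15 with numpy 2.4.6 and pandas 2.3.3 made the tables and matplotlib 3.10.9 the figures.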

Additional observations from a re-analysis of the deposited data

Results flagged for a closer look

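In 4 genes the difference between genotypes differed between the diets by the interaction term of limma, which called 17.4% of all genes. When the WT HFD pair counted as 1 sample, 1 of the 4 calls was left (Axl), beside 2.75% of all genes. For Axl the effect of the knockout on HFD minus that on SD was 2.2646 on the log2 scale, with a rise called on HFD alone, and for Myof 1.3058, with rises called on both diets. For Arhgef17 it was 1.1012, with the genotypes in opposite order on the 2 diets, and for Ccdc80 -1.8104, with a fall on HFD and overlapping libraries on SD. The macrophage, fibroblast and adipocyte marker sums given above also differed between genotypes by diet, and their part in these values was not tested.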

How the results depend on the processing

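On HFD the number of members called between genotypes stayed between 4 and 7 under all alternatives, with 16.5% to 41.9% of all genes called. Over all comparisons, 598 values kept their direction and call, 69 lost a call, 22 gained a call and 13 turned direction. On SD, where 1 member was called, it was 2 with a pseudocount of 8, a mean of at least 50 or upper-quartile scaling, and 1 to 3 without a replicate, beside 4.71% of all genes and 5.15%, 7.16%, 4.9% and 2.03% to 4.14%. For the diets in WT mice, the 5 members became 2 without a filter, 0 with the WT HFD pair as 1 sample, 2 at an adjusted p of at most 0.01 and 0 to 3 without a replicate, and the 2 other signature genes became 1 without a filter, 1 with equal totals, and that lower, 0 with the pair as 1 sample, 1 at the stricter p and 0 to 4 without a replicate. The share of all genes called there also fell, from 18% to 5.6% without a filter, 2.87% with the pair as 1 sample and 6.51% at the stricter p. For the diets in KO mice, the 1 member was lost (0) without a filter, in a fit of the 2 groups and at the stricter p, and the counts ran from 0 to 4 for members and 0 to 1 for the others without a replicate, beside 1.07% of all genes and 0.00987%, 0%, 0.133% and 0.0745% to 5.11%. In the interaction, the 4 members became 5 with a pseudocount of 8, a mean of at least 50, equal totals or upper quartiles (17.2% to 27.6% of all genes), 2 without a filter, 1 with the pair as 1 sample, 2 at the stricter p and 1 to 6 without a replicate, and the others ran from 0 to 2, beside 17.4% of all genes and 2.37%, 2.75%, 3.89% and 2.82% to 22.6% under the last 4 settings.

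Scaling every library to the same total moved the median of all genes from 0.09 to 0.47 between genotypes on HFD, from -0.08 to -0.48 between diets in WT mice and from 0.10 to 0.52 in the interaction. It turned Crim1 to 0.045 on HFD, Crim1 to -0.028 and Ptpn14 to -0.086 between diets in WT mice, and Ptpn14 to 0.065 in the interaction, none of them called before or after. Without a replicate, uncalled values crossed 0 for Nt5e (-0.38 to 0.58), Dock5 (-0.014 to 0.24) and Ccdc80 (-0.19 to 0.44) between genotypes on SD, for Nt5e (-1.33 to 0.061), Ptpn14 (-0.21 to 0.14) and Dock5 (-0.086 to 0.49) between diets in KO mice, and for Crim1 in the interaction (-0.14 to 0.53). The causes were not tested.

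The replicate numbers were not shown to pair the mice (r of same-numbered deviations -0.30 to 0.11). With the replicate block, Nuak2 on HFD was 0.75 with an adjusted p of 0.060, so that 5 members were called there, and no other call changed. No count test (edgeR or DESeq2) was run, since the values are rounded. With 2 libraries per group and 1 left out, the lone sample was assumed to vary like the other groups.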
